A study of Rattus norvegicus with 15 samples.

Results

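The genes of hepcidin and iron handling are described here as 10 members that were looked up by gene symbol among the 32623 genes of the deposited count table: Hamp, Bmp6, Hfe, Tfr2, Tfrc, Tf, Slc40a1, Fth1, Ftl1 and Slc39a14. All 10 had a row, 9 passed the filter on low counts, and Fth1 was listed at 0 in all 14 livers. Hepcidin, the peptide encoded by Hamp, is made by hepatocytes and lowers plasma iron by binding the iron exporter ferroportin (Slc40a1), which is then degraded. Hepatocytes set hepcidin by BMP6, which comes from sinusoidal endothelial cells and signals through SMAD proteins, by the iron sensors HFE and transferrin receptor 2, and, in inflammation, by IL-6 through STAT3. Transferrin carries iron in plasma, transferrin receptor 1 (Tfrc) and ZIP14 (Slc39a14) take it up, and ferritin stores it.

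RNA was sequenced from livers of male Wistar rats, with an initial weight of 75 to 100.0 g. The cirrhosis group inhaled CCl4 3 times a week for 12 weeks and drank water with phenobarbital at 0.35 g/L. The cirrhosis & eplerenone group had the same CCl4 and phenobarbital, and from week 8 to week 12 also the mineralocorticoid receptor (MR) blocker eplerenone at 100 mg/kg, offered in 5 g of hazelnut spread a day. Livers of both groups were taken 7 to 10 days after the last CCl4. Control rats were untreated, and the sources give them neither phenobarbital nor spread, so these cannot be told apart from CCl4 in any comparison with control, nor the spread from eplerenone. The table held 4 control rats (replicates 2 to 5), 5 with cirrhosis and 5 with cirrhosis & eplerenone. Control replicate 1 was not analysed here. The sequenced rats were a subgroup that the study picked by how well cirrhosis induction or eplerenone treatment had worked, which limits the groups as a model. Age in weeks was not given in the sources used here.

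Levels are given as FPM, the counts of a gene per 1e+06 counted reads after TMM scaling of the libraries (16157491 to 21574767 counted reads per rat). In these libraries 3 counts stand for 0.121 to 0.191 FPM. A log2FC is the fold change on the log2 scale from edgeR's quasi-likelihood test, FDR is its p-value after Benjamini-Hochberg adjustment over all 14417 genes tested, and a gene was called a DEG when edgeR and DESeq2 both gave an adjusted p below 0.05. Levels of different genes are not compared, since no gene lengths were used. All 6 hepatocyte markers (Alb, Ttr, Apoa1, Serpina1, Cps1 and Cyp2e1) were present in every liver, and none of them was a DEG in any comparison. Their summed level ran from 147824.9 to 162615.1 FPM in control, from 84740.1 to 151182.8 FPM in cirrhosis and from 80748.6 to 141719.0 FPM in cirrhosis & eplerenone. Alb made up most of this sum in every liver. Cirrhosis replicates 1 and 3 were more alike than any other 2 cirrhotic livers. A chi-square of their counts per gene was 24.98 between them and 75.3 to 279.7 for the other pairs of cirrhotic livers. Control pairs gave 30.94 to 70.72, and cirrhosis replicate 5 was farthest from the other cirrhotic livers, at 161.6 to 279.7. Values that rest on replicates 1 and 3 are also given with both left out, an alternative chosen after the data were seen. In that fit 1042 of 14583 genes were called in cirrhosis in place of 2898 of 14417. In whole liver, fewer cells of a type and less RNA per cell cannot be told apart.

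The promoter of Hamp is shown because the BMP and the STAT3 inputs both reach the gene through short sites in it. RefSeq promoters on the rat assembly GRCr8 were found for 6 of the 10 members. Hfe, Fth1, Ftl1 and Slc39a14 were not matched. The 250 bases before the Hamp start lie on the minus strand at chr1:95300272-95300521 and are written 5′ to 3′ with 2 motifs in capitals, the GGCGCC core of a BMP response element and a STAT site of the form TTCNNNGAA.
Hamp promoter: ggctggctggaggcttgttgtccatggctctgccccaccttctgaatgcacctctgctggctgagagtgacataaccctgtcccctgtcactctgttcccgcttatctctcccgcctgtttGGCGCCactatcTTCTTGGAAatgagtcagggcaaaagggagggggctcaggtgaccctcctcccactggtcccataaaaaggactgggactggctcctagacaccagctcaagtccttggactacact
GGCGCC lay 129 to 124 bases and TTCTTGGAA 117 to 109 bases before the start, without overlap. Both motifs read the same on either strand. Of 33469 rat promoters of this length, 8.69% held GGCGCC, 7.67% held TTCNNNGAA and 0.379% held both. Among the other matched members, GGCGCC was found once, 118 bases before the start of Tfrc, and TTCNNNGAA was in none of them. A match of letters is not evidence of binding.

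Hamp (ENSRNOG00000021029, chromosome 1) differed more between rats of one group than between the groups. In control replicates 2 to 5 it was 770.8, 849, 449 and 523 FPM. In cirrhosis replicates 1 to 5 it was 1176, 363, 903, 262 and 643 FPM. With eplerenone it was 612, 508, 289.8, 549 and 422 FPM in replicates 1 to 5. The highest and the lowest liver of the whole series both belonged to the cirrhosis group, and all 3 groups overlapped. The ratio of the highest to the lowest rat was 4.49 in cirrhosis, 1.89 in control and 2.11 in cirrhosis & eplerenone.

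The mean of Hamp was 648 ± 192 FPM in the 4 control livers (SD, n = 4). It was 669 ± 378 FPM for cirrhosis (SD, n = 5) and 476 ± 125 FPM where eplerenone was added (SD, n = 5). Cirrhosis against control gave a log2FC of 0.05 with a 95% interval from -0.76 to 0.86 (edgeR, FDR = 0.939). Neither a 1.5-fold rise nor a 1.5-fold fall lies outside this interval. Cirrhosis & eplerenone against cirrhosis gave -0.49 (-1.26 to 0.27, edgeR, FDR = 0.496), and against control it gave -0.44 (-1.25 to 0.36, edgeR, FDR = 0.578). The sign of the cirrhosis difference hung on single rats: it was -0.23 without cirrhosis replicate 1, -0.08 without cirrhosis replicate 3, -0.10 without control replicate 4 and -0.05 without control replicate 5, and DEG status was reached in none of these fits. Replicates 1 and 3 were the 2 cirrhotic livers with the highest Hamp, and with both left out the log2FC against control was -0.60 (edgeR, FDR = 0.287) and that of eplerenone against cirrhosis was 0.16 (edgeR, FDR = 0.997).

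**Figure D1:**
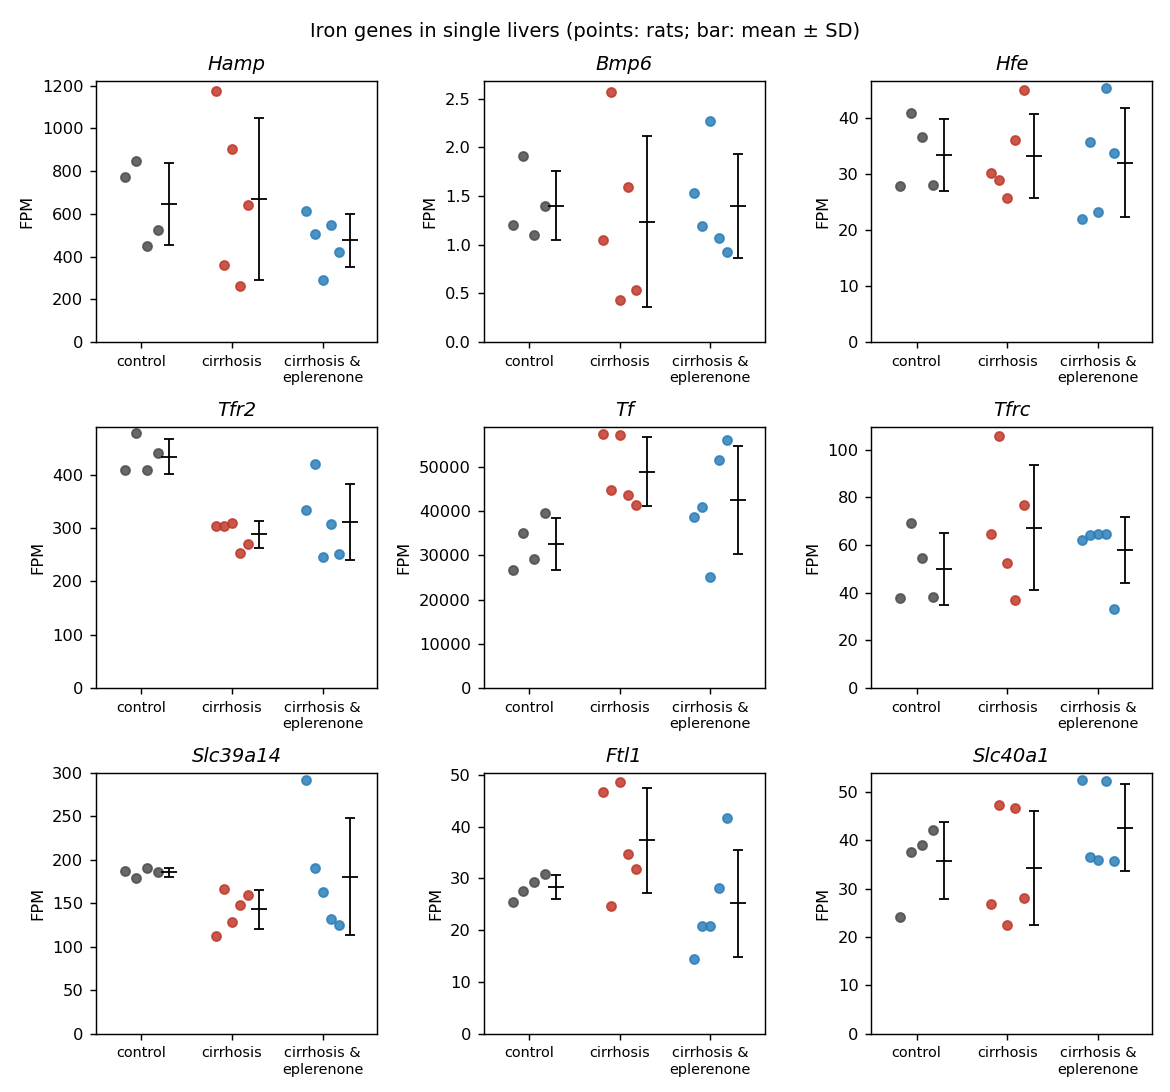
FPM of the 9 members that could be tested (vertical axes start at 0), with a point for each rat in control, cirrhosis and cirrhosis & eplerenone and a bar for the group mean ± SD. The 5 cirrhotic livers of Tfr2 sit between 253.8 and 309.8 FPM, all below the 4 controls at 408.6 to 478.1 FPM, whereas the cirrhotic livers of Hamp spread from 261.8 to 1175.8 FPM around the controls.

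The ligand Bmp6 (ENSRNOG00000013717, chromosome 17) was near the limit of these libraries, with 8 to 63 counts per rat. It was 1.21, 1.91, 1.10 and 1.399 FPM in control, 1.05, 2.57, 0.432, 1.59 and 0.536 FPM in cirrhosis, and 1.53, 1.19, 2.27, 1.07 and 0.929 FPM with eplerenone. The groups overlapped, and the log2FC of cirrhosis against control was -0.17 with an interval from -1.21 to 0.87 (edgeR, FDR = 0.818). Bmp6 with eplerenone against cirrhosis was 0.17 (-0.81 to 1.15, edgeR, FDR = 0.866), and against control its log2FC was 0.00 (edgeR, FDR = 0.9997).

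Hfe, which encodes the hemochromatosis protein, lay between 28.0 and 40.9 FPM in control, 25.8 and 45.1 FPM in cirrhosis and 22.1 and 45.5 FPM with eplerenone. Its group means were 33.4 ± 6.45 (SD, n = 4), 33.2 ± 7.56 (SD, n = 5) and 32.1 ± 9.67 FPM (SD, n = 5). The log2FC was -0.01 in cirrhosis against control, -0.05 with eplerenone against cirrhosis (interval -0.51 to 0.41) and -0.06 with eplerenone against control (interval -0.54 to 0.42), with edgeR FDRs of 0.982, 0.913 and 0.924. The 3 groups of Hfe overlapped almost fully.

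Tfr2 (ENSRNOG00000001407, chromosome 12), the iron-sensing transferrin receptor of hepatocytes, fell in cirrhosis and was the only DEG among the 9 members tested. In control it was 408.6, 478, 408.7 and 441 FPM. In cirrhosis it was 303.5, 303.7, 309.8, 254 and 269.7 FPM. Every cirrhotic liver was below every control liver, and the level was 1.51-fold lower, with a log2FC of -0.59, a 95% interval from -0.98 to -0.21 and adjusted p-values of 0.0337 in edgeR's quasi-likelihood test and 0.00604 in DESeq2.

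With eplerenone Tfr2 was 334, 421, 246, 308 and 251 FPM, of which replicate 2 lay within the control range and the other 4 below it. Against cirrhosis the log2FC of Tfr2 was 0.11 (-0.25 to 0.48, edgeR, FDR = 0.746), and against control it was -0.48 (-0.86 to -0.09), with an FDR of 0.143 in edgeR and an adjusted p of 0.0488 in DESeq2. When each rat was dropped in turn, the Tfr2 call in cirrhosis held in 7 of 14 fits. It was lost without cirrhosis replicate 1, 3 or 4 and without any 1 of the 4 controls, where the log2FC ran from -0.62 to -0.53 and the edgeR FDR from 0.0537 to 0.0899. With cirrhosis replicates 1 and 3 both left out it was lost as well, at -0.63 with an FDR of 0.0782 in edgeR and an adjusted p of 0.0148 in DESeq2. Scaling by total counts alone moved the median of all genes by 0.28 between cirrhosis and control, and there Tfr2 was at -0.30 (edgeR, FDR = 0.186).

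Across the members, 1 of 9 was called in cirrhosis against control, beside 20.1% of all genes tested and 6.67% called in the lower direction. DESeq2 alone called 2 members, Tfr2 and Tf, beside 27.8% of all genes. At an unadjusted p below 0.05 in edgeR there were 2 members, beside 37.1% of all genes. The rats of both groups did not overlap for 3 of the 9 members (Tfr2, Tf and Slc39a14), beside 20.2% of all genes. The median log2FC of the members was -0.01, the same as that of all genes tested (-0.01). Beside these backgrounds, the counts over 9 members are not read as a result about iron genes.

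**Figure D2:**
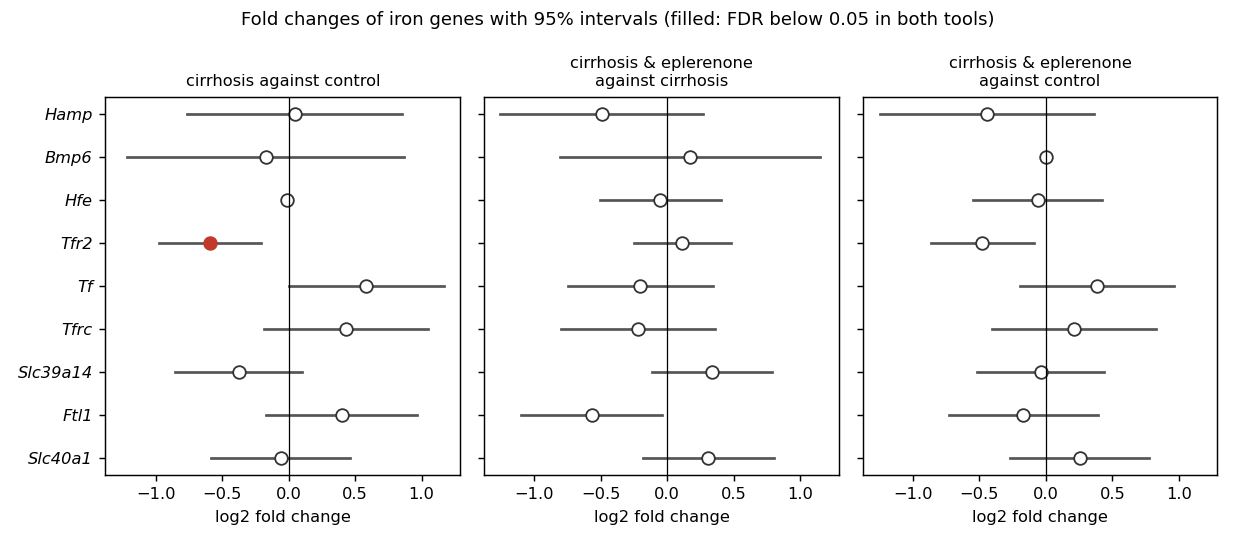
Log2 fold change of the 9 tested members (horizontal axis) in the 3 comparisons, with 95% intervals as lines where edgeR gave one and a filled point for a DEG. Only Tfr2 in cirrhosis against control (-0.59, interval -0.98 to -0.21) has a filled point, and the intervals of Hamp span 0 in all 3 panels.

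Tf, the plasma iron carrier made by hepatocytes, was higher in each cirrhotic liver than in any control liver but did not pass both tests. It was 26606, 35036, 29061 and 39582 FPM in control and 57448, 44784, 57236, 43549 and 41374 FPM in cirrhosis. Transferrin transcripts were 2.33% to 3.35% of all counted reads in control and 4.06% to 5.72% in cirrhosis. The log2FC was 0.59 (0.00 to 1.17), with an FDR of 0.133 in edgeR and an adjusted p of 0.0325 in DESeq2. Cirrhosis replicates 1 and 3 had the highest Tf, and with both left out it was at 0.44 (edgeR, FDR = 0.415).

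With eplerenone Tf was 38617, 40976, 25137, 51639 and 56145 FPM, from below the control range to within the cirrhosis range. Its log2FC was -0.20 against cirrhosis (-0.75 to 0.34, edgeR, FDR = 0.697) and 0.38 against control (-0.20 to 0.97, edgeR, FDR = 0.478). Under total-count scaling Tf passed both tests in cirrhosis (0.87, edgeR FDR = 0.00716) and in cirrhosis & eplerenone against control (0.66, edgeR FDR = 0.0450). The summed hepatocyte markers, mostly Alb, were below the control range in 4 of 5 cirrhotic livers while Tf was above it in all 5. Ttr, Serpina1 and Cps1 also ran lower with overlap. Apoa1 did not (2297 to 4084 FPM in cirrhosis against 1047 to 3278 FPM in control), and Cyp2e1 spread around the controls (1120 to 3182 against 1456 to 2255 FPM). The part of cell composition in Tf or in these markers was not tested.

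The uptake receptor Tfrc was 37.6, 69.2, 54.4 and 38.2 FPM in control and 64.6, 106, 52.3, 36.7 and 76.7 FPM in cirrhosis, with overlap. The log2FC was 0.43 (-0.19 to 1.05, edgeR, FDR = 0.285). With eplerenone 4 livers lay within 62.3 to 64.9 FPM, and replicate 5 stood apart at 33.1 FPM, below every control. Tfrc was -0.22 against cirrhosis (-0.80 to 0.36, edgeR, FDR = 0.693) and 0.21 against control (-0.40 to 0.83, edgeR, FDR = 0.758).

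Slc39a14, the transporter that takes up iron not bound to transferrin, was 187.5, 179, 190.5 and 186 FPM in control, the narrowest control group among the members, with the highest rat 1.06 times the lowest. In cirrhosis it was 112, 167, 129, 148 and 159 FPM, all below the controls. The log2FC was -0.38, yet its interval from -0.85 to 0.10 included 0 (edgeR, FDR = 0.231). With eplerenone the livers were at 291, 191, 163, 132 and 126 FPM, which straddled both other groups, and the log2FC was 0.34 against cirrhosis (-0.12 to 0.79, edgeR, FDR = 0.436) and -0.04 against control (-0.52 to 0.44, edgeR, FDR = 0.949).

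The ferritin genes could be read only in part. Fth1, the heavy chain that every cell uses, was listed at 0 counts in each of the 14 livers, so no statement on its level is made. The row named Ftl1 (ENSRNOG00000031506) is placed on chromosome 5 in the table, while RefSeq on GRCr8 places Ftl1 on chromosome 1 and a gene with Ftl1 as a synonym on chromosome 5. Ferritin genes have many near-identical copies, and reads that mapped to several places were counted at each, so the values of this row are uncertain.

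The Ftl1 row was 25.5, 27.6, 29.2 and 30.9 FPM in control, 46.7, 24.6, 48.7, 34.7 and 31.9 FPM in cirrhosis and 14.5, 20.9, 20.9, 28.1 and 41.6 FPM with eplerenone. In cirrhosis 4 of 5 livers were above the control range, and with eplerenone 3 of 5 were below it. The log2FC was 0.40 in cirrhosis against control (-0.17 to 0.96, edgeR, FDR = 0.280), -0.57 with eplerenone against cirrhosis (-1.10 to -0.04, edgeR, FDR = 0.329) and -0.17 with eplerenone against control (-0.73 to 0.39, edgeR, FDR = 0.793). Cirrhosis replicates 1 and 3 were the highest for Ftl1 too, and with both left out it was at 0.13 in cirrhosis against control (edgeR, FDR = 0.805) and at -0.28 with eplerenone against cirrhosis (edgeR, FDR = 0.997).

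Slc40a1, the exporter that hepcidin acts on, lay between 24.1 and 42.0 FPM in control, 22.5 and 47.3 FPM in cirrhosis and 35.6 and 52.4 FPM with eplerenone. Cirrhosis against control gave -0.06 (-0.58 to 0.47, edgeR, FDR = 0.879), a sign that turned to 0.28 under total-count scaling. Slc40a1 with eplerenone was 0.31 against cirrhosis (-0.18 to 0.80, edgeR, FDR = 0.503) and 0.25 against control (-0.27 to 0.78, edgeR, FDR = 0.636), without a call.

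No member was a DEG between cirrhosis & eplerenone and cirrhosis, beside 0.0139% of all genes tested, and DESeq2 called none either, beside 0.513%. At an unadjusted p below 0.05 in edgeR there was 1 of 9, Ftl1, beside 14.4% of all genes. No member was a DEG between cirrhosis & eplerenone and control, beside 5.2% of all genes, and DESeq2 alone called 1, Tfr2, beside 10.6%. At an unadjusted p below 0.05 there was again 1 of 9, Tfr2, beside 20.5% of all genes. In both comparisons the groups overlapped for all 9 members, while they did not overlap for 0.964% and 10.9% of all genes. The 3 comparisons share their groups, so that their values are not independent of one another.

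The animal labels of the CCl4-treated rats begin with 15 or 20, and what this prefix stands for is not stated. Within prefix 15 (3 rats with cirrhosis, 2 with eplerenone) the eplerenone difference of Slc39a14 was 0.80 on the log2 scale, and both eplerenone livers were above the 3 others. Within prefix 20 (2 rats with cirrhosis, 3 with eplerenone) it was -0.11, with 2 of the 3 eplerenone livers below the other group. Ftl1 was at -1.21 and -0.13, and Hamp at -0.56 and -0.08 within prefix 15 and prefix 20. No member passed within either prefix in edgeR, where 24 of 13795 genes (0.174%) passed within prefix 15 and 0 (0.0%) within prefix 20. The 24 became 3312 of 13938 genes without cirrhosis replicate 2, where Ftl1 (-1.43, edgeR, FDR = 0.0166) and Slc39a14 (1.01, edgeR, FDR = 0.0311) passed. In that fit the only cirrhotic livers of prefix 15 were replicates 1 and 3. Without the filter on low counts the 24 became 1197 of 20827, where Ftl1 passed (-1.20, edgeR, FDR = 0.0408). A test of whether the difference varied with the prefix called none of 13795 genes (0.0%), with 12.2% at an unadjusted p below 0.05. That count of 0 became 88 without cirrhosis replicate 2, 5 without cirrhosis replicate 4, 3 without cirrhosis replicate 5 and 64 without the filter on low counts, and no member was among them. For Slc39a14 that test gave an unadjusted p of 0.0419 and an FDR of 0.401 in edgeR. Control labels begin with 13 or 16, so the prefix cannot be told apart from CCl4 in comparisons with control.

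Other genes of iron metabolism were taken from 7 lists of 96 genes, of which 95 were in the table and 90 could be tested. In cirrhosis against control 18 of the 90 were DEGs, 9 higher and 9 lower, beside 13.4% and 6.67% of all genes tested, a total share close to the 20.1% of all genes. The count was 11 without control replicate 4 and 9 without control replicate 5. Over all genes these fits called 1776 of 14752 and 1360 of 14745, in place of 2898 of 14417. With cirrhosis replicates 1 and 3 both left out the list count was 10, beside 1042 of 14583 genes. Of the 10, 8 were among the 18 (Cd163, Egln3, Fdx1, Heph, Lcn2, Scara5, Slc11a2 and Slc39a8). Of the 18 calls, 8 held in each of the 14 fits that left out 1 rat (Aco1, Heph, Id1, Lcn2, Scara5, Slc11a2, Slc39a8 and Slc48a1).

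Among 20 tested genes of BMP-SMAD signalling to hepcidin, 1 was called in cirrhosis, beside 20.1% of all genes tested. Their median log2FC was -0.40, beside -0.01 for all genes. Several genes of this list were lowest in cirrhosis replicates 1 and 3. Smad4, the SMAD shared by all branches of the pathway, was 3.05, 10.85, 2.59, 9.44 and 10.6 FPM in cirrhosis replicates 1 to 5 and 12.5 to 16.4 FPM in control. Neo1, which encodes the hemojuvelin-binding receptor neogenin, was 2.66, 9.43, 3.83, 11.9 and 12.9 FPM in cirrhosis and 9.11 to 12.4 FPM in control. Bmpr1a, Acvr2a and Smad5 were also lowest in these 2 cirrhotic livers, and with both left out the median of the list was -0.16.

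Id1, a transcriptional target of SMAD signalling, was 5.55, 6.19, 5.43 and 2.61 FPM in control and 19.5, 14.5, 22.6, 18.4 and 6.43 FPM in cirrhosis. It rose by a log2FC of 1.72 (SE 0.42, edgeR, FDR = 0.0126), with every cirrhotic liver above every control. With eplerenone Id1 was 5.81 to 22.2 FPM, without a call against control (1.44, edgeR, FDR = 0.0583) or against cirrhosis (-0.28, edgeR, FDR = 0.718). The call in cirrhosis was lost with cirrhosis replicates 1 and 3 left out (1.44, edgeR, FDR = 0.0765).

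The other SMAD targets and regulators gave no call in cirrhosis: Atoh8 was at -0.14, the inhibitory Smad6 at -0.59 and Smad7 at -0.11. The BMP co-receptor hemojuvelin (Hjv) was at -0.84 (edgeR, FDR = 0.0769), the endothelial ligand Bmp2 at -0.77 (edgeR, FDR = 0.0684) and the hepcidin-lowering protease Tmprss6 at -0.41 (edgeR, FDR = 0.269). Hjv was 42.97 to 86.8 FPM in cirrhosis and 68.3 to 169 FPM in control, with overlap. With cirrhosis replicates 1 and 3 left out Smad6 (-1.06, edgeR, FDR = 0.0383) and Bmp2 (-1.09, edgeR, FDR = 0.0387) were called lower. Erfe, the erythroid hormone that lowers hepcidin, had too few counts to be tested.

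Of 7 tested genes on the IL-6-STAT3 list 1 was called higher and 1 lower, beside 13.4% and 6.67% of all genes tested. Il1b rose in cirrhosis (0.95, edgeR, FDR = 0.0490) and the kinase gene Jak1 fell (-0.74, edgeR, FDR = 0.0344). Both calls were near the threshold, and they held in 4 and 8 of the 14 fits that left out 1 rat. Neither gene was called with cirrhosis replicates 1 and 3 left out, with Il1b at 0.77 (edgeR, FDR = 0.205) and Jak1 at -0.45 (edgeR, FDR = 0.186). Stat3 was at 0.46 (edgeR, FDR = 0.252) and the feedback inhibitor Socs3 at -1.67 (edgeR, FDR = 0.0734), where control rats ran from 1.33 to 13.9 FPM. Il6 had too few counts to be tested.

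In uptake and scavenging 5 genes were higher and 3 lower of 14 tested in cirrhosis, beside 13.4% and 6.67% of all genes tested. These are counts with no test of the list, and with cirrhosis replicates 1 and 3 left out they were 3 and 2. In that fit 867 of 14583 genes were called higher and 175 lower. Lcn2, the siderophore-binding protein lipocalin 2, was 2.05, 0.810, 1.65 and 0.636 FPM in control and 190.4, 47.1, 209.8, 70.2 and 11.8 FPM in cirrhosis (log2FC 6.35, SE 1.14, edgeR, FDR = 0.00257). Scara5, a receptor for L-ferritin, was 0.181 to 0.977 FPM in control and 2.50 to 9.37 FPM in cirrhosis (3.36, edgeR, FDR = 0.00116). The iron transporter DMT1 (Slc11a2) rose by 0.65, the heme transporter Slc48a1 by 0.90 and the metalloreductase Steap2, which was at or under 2.05 FPM in both groups, by 2.31, with edgeR FDRs of 0.00744, 0.00802 and 0.0203. In all 5 the group with cirrhosis was the higher one, and only for Steap2 did a cirrhotic liver fall within the control range. Slc48a1 (0.74, edgeR, FDR = 0.0517) and Steap2 (2.45, edgeR, FDR = 0.0556) were not called with cirrhosis replicates 1 and 3 left out.

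The zinc and iron transporter ZIP8 (Slc39a8) fell in cirrhosis by 1.22, from 62.2 to 76.7 FPM in control to 18.9 to 50.8 FPM (edgeR, FDR = 0.0049). The macrophage hemoglobin scavenger Cd163 fell by 1.22 (edgeR, FDR = 0.0163) and Lrp1, a receptor for heme-hemopexin, by 0.92 (edgeR, FDR = 0.0424). The Lrp1 call held in 5 of 14 fits that left out 1 rat. It was also lost with cirrhosis replicates 1 and 3 left out (-0.95, edgeR, FDR = 0.118).

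For storage, chaperones and export 4 genes were tested, with 1 called higher and 1 lower, beside 13.4% and 6.67% of all genes tested. The copper ferroxidase hephaestin (Heph) rose from 0.127 to 0.733 FPM in control to 1.79 to 6.61 FPM in cirrhosis (3.29, edgeR, FDR = 0.00182), and the iron chaperone gene Pcbp2 fell (-0.41, edgeR, FDR = 0.0474). The Pcbp2 call held in 1 of 14 fits that left out 1 rat. It was also lost with cirrhosis replicates 1 and 3 left out (-0.33, edgeR, FDR = 0.183). Ceruloplasmin (Cp), the plasma ferroxidase of hepatocytes, was at 0.21 (edgeR, FDR = 0.433).

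In iron sensing, both genes for iron regulatory proteins, which bind the mRNAs of ferritin and transferrin receptor, fell in cirrhosis. Aco1 was 88.6 to 119 FPM in control and 49.1 to 69.9 FPM in cirrhosis (-0.84, edgeR, FDR = 0.00899). Ireb2 was 23.2 to 44.5 FPM in control and 10.3 to 25.7 FPM in cirrhosis (-1.13, edgeR, FDR = 0.019). Both calls were lost with cirrhosis replicates 1 and 3 left out, with Aco1 at -0.72 (edgeR, FDR = 0.0606) and Ireb2 at -0.82 (edgeR, FDR = 0.116). The prolyl hydroxylase gene Egln3 rose by 2.32 (edgeR, FDR = 0.0206), so that 3 of 7 tested genes of this list were called, beside 20.1% of all genes tested. With cirrhosis replicates 1 and 3 left out the count was 1 of 7, Egln3, beside 1042 of 14583 genes.

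None of 18 tested genes of heme synthesis and breakdown was a DEG in cirrhosis, beside 20.1% of all genes tested. DESeq2 alone called 1, beside 27.8% of all genes, and 3 had an unadjusted p below 0.05 in edgeR, beside 37.1%. Hmox1, the inducible heme oxygenase, was at 0.73 (edgeR, FDR = 0.166). Of 20 tested genes of iron-sulfur cluster assembly 2 were lower and none higher, beside 6.67% and 13.4% of all genes tested. Among the 2 was ferredoxin 1 (Fdx1), which fell from 71.5 to 103 FPM in control to 39.0 to 65.7 FPM in cirrhosis (-0.60, edgeR, FDR = 0.0364).

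**Figure D3:**
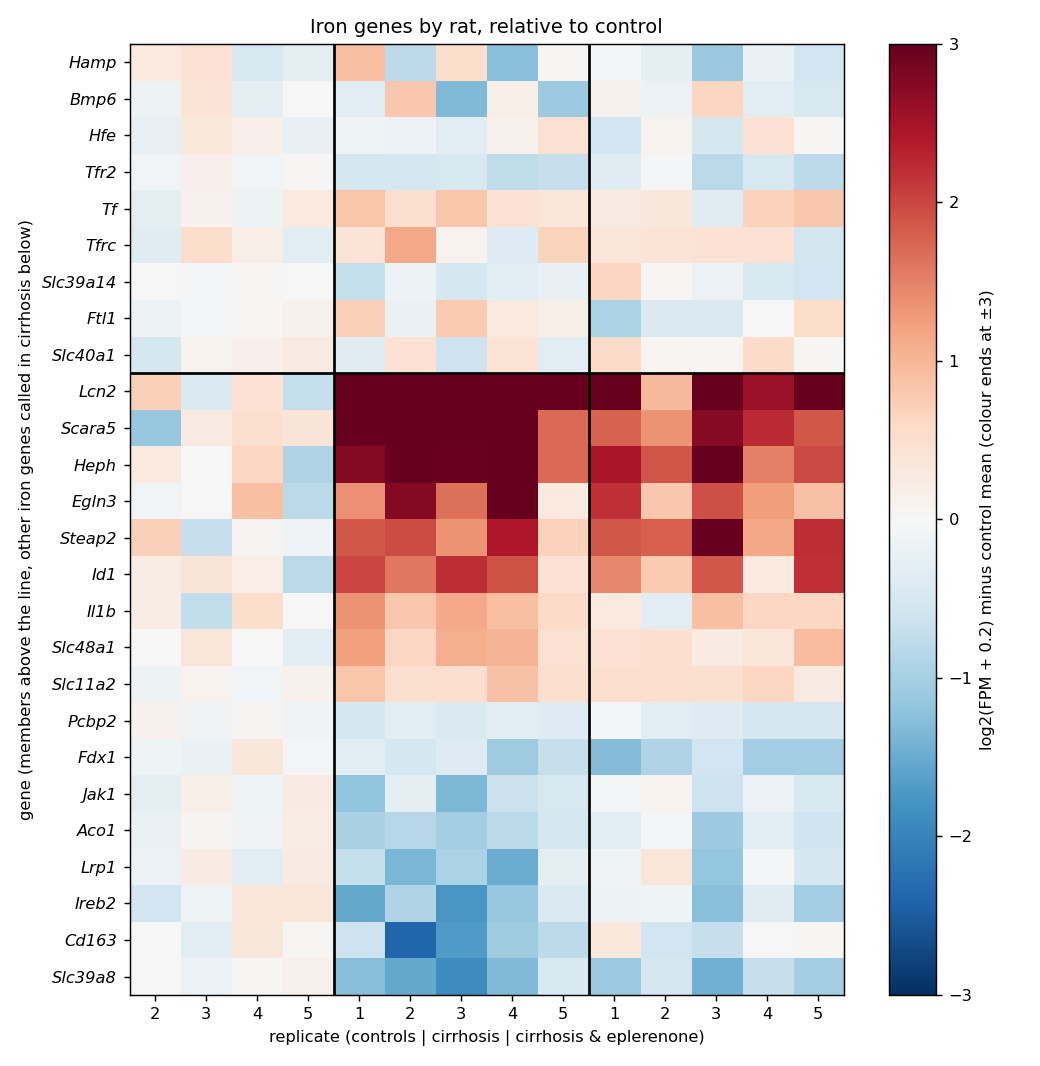
Log2(FPM + 0.2) minus the control mean for each rat (columns, by group and replicate) in the 9 tested members (above the line) and 17 of the 18 iron genes called in cirrhosis (below it), with the colour scale ending at ±3. Lcn2, Scara5 and Heph are red in all 5 cirrhotic livers, and cirrhosis replicate 5 is paler than the other 4 in the rows of Scara5 and Heph. The rows of Bmp6 and Hfe mix both colours within each group. Hamp mixes them in control and in cirrhosis, while all 5 eplerenone livers lie below its control mean, replicate 1 only just (612 FPM).

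Between cirrhosis & eplerenone and cirrhosis none of the 90 list genes was a DEG and DESeq2 called none of them, beside 0.0139% and 0.513% of all genes tested. At an unadjusted p below 0.05 in edgeR there were 19, beside 14.4% of all genes. Against control 7 of the 90 were DEGs, 4 higher and 3 lower, beside 4.33% and 0.874% of all genes. Steap2 (2.77), Scara5 (2.21), Lcn2 (4.60) and Heph (2.71) were higher, and Slc39a8 (-0.92), the heme synthesis enzyme gene Ppox (-0.91) and Fdx1 (-0.97) were lower, with edgeR FDRs between 0.00997 and 0.0429. The count was 2 without control replicate 3, 4 without control replicate 4, 3 without control replicate 5 and 4 without eplerenone replicate 3. Over all genes these fits called 310, 414, 220 and 377, in place of 750. The calls for Heph and Fdx1 held in all 14 fits that left out 1 rat.

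Markers of other liver cells moved along with these genes. In cirrhosis all 5 cholangiocyte markers rose (summed level 41.5 to 134 FPM against 13.9 to 22.3 FPM in control), as did 4 of 6 stellate cell markers (81.0 to 227 against 52.3 to 83.3 FPM) and 3 of 5 tested lymphocyte markers (5.24 to 13.03 against 2.08 to 4.04 FPM). Over all genes tested 13.4% were called higher and 6.67% lower. Lrat of the stellate cell list ran lower without a call, at 2.49 to 14.1 FPM in cirrhosis against 12.3 to 20.2 FPM in control. Of 7 Kupffer cell and macrophage markers, Cd163 alone was called, lower (summed level 85.5 to 315 against 203 to 354 FPM). Uncalled markers of this list went both ways, with overlap. Clec4f, the largest part of the sum in control, ran lower (8.08 to 133.2 against 105.1 to 184.7 FPM), as did Vsig4 (0.408 to 17.56 against 16.13 to 27.66 FPM). Csf1r (29.99 to 57.19 against 23.82 to 35.47 FPM) and Cd68 (17.06 to 33.55 against 10.81 to 17.91 FPM) ran higher. Of 5 sinusoidal endothelial markers, Fcgr2b (-1.52) and Kdr (-1.10) fell. Between cirrhosis & eplerenone and control 2 of 6 stellate cell markers rose (Col1a1 and Dcn, summed level at least 116.5 FPM with eplerenone), as did 2 of 5 cholangiocyte markers (Epcam and Sox9, 44.4 to 85.4 FPM) and 1 of 5 tested lymphocyte markers (Cd2, 2.75 to 9.02 FPM), and DESeq2 alone called all 5 cholangiocyte markers. In this comparison 4.33% of all genes tested were called higher, and DESeq2 alone called 10.6% in either direction. Of 4 tested erythroid markers Epb42 alone was called, higher in cirrhosis. The erythroid sum was 163.5 to 539 FPM in control, 61.1 to 1027 FPM in cirrhosis and 92.5 to 1150.1 FPM with eplerenone, highest in cirrhosis replicate 3 and in eplerenone replicate 5. The latter was the liver with the low Tfrc of 33.1 FPM, beside hemoglobin Hbb at 1114 FPM and the erythroid heme synthesis enzyme gene Alas2 at 29.6 FPM. No marker of these lists was at 0 over a whole group, and their part in the calls above was not tested.

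The endothelial marker sum, for the cells that make BMP6 and BMP2, also spread widely in cirrhosis. It was 216, 48.9, 144, 76.6 and 122 FPM in cirrhosis replicates 1 to 5, against 207 to 261 FPM in control and 135 to 209 FPM with eplerenone. The cirrhotic livers with the lowest sums, replicates 2 and 4, also had the lowest Hamp (363 and 262 FPM), and replicate 1 had the highest of both. Bmp2 was 12.15, 4.65, 7.55, 6.00 and 7.02 FPM in cirrhosis replicates 1 to 5, from 114 to 219 counts, so that it too was highest in replicate 1 and lowest in replicates 2 and 4. Bmp6, on 8 to 63 counts per rat, ran the other way in these livers, highest in replicates 2 and 4 at 2.57 and 1.59 FPM. All 4 control sums were at 206.5 FPM or more, with Hamp from 449 to 849 FPM. Control replicate 3 had the lowest control sum (206.5 FPM) and Bmp2 (8.73 FPM) but the highest control Hamp (849 FPM). Control replicate 5 had the highest control sum (260.5 FPM) and Bmp2 (17.87 FPM), with Hamp at 522.5 FPM. With eplerenone, replicate 3 had the lowest sum (135 FPM), Bmp2 (7.73 FPM) and Hamp (289.8 FPM). A link of Hamp to these genes was not tested.

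The genes whose log2 FPM ran most like that of Hamp over the 14 livers, of 12799 genes ranked, were Abcb6 (Pearson's r = 0.913), Fxyd1 (r = 0.884), Sult1a1 (r = 0.881), Aldh1l1 (r = 0.879) and Bche (r = 0.875). These are descriptions over livers that share libraries and groups, and the highest of so many correlations is high by selection. Abcb6, which encodes a porphyrin transporter, was 101.3 FPM in cirrhosis replicate 1 and 47.3 and 47.1 FPM in replicates 2 and 4. Under total-count scaling it was 100.9, 53.67 and 56.88 FPM in these livers, against 48.2 to 66.06 FPM in control. Over the 10 CCl4-treated rats alone r was 0.921 for Abcb6. In RefSeq order Hamp is followed by Usf2, and 7 genes lie between Hamp and Fxyd1 on chromosome 1.

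**Figure D4:**
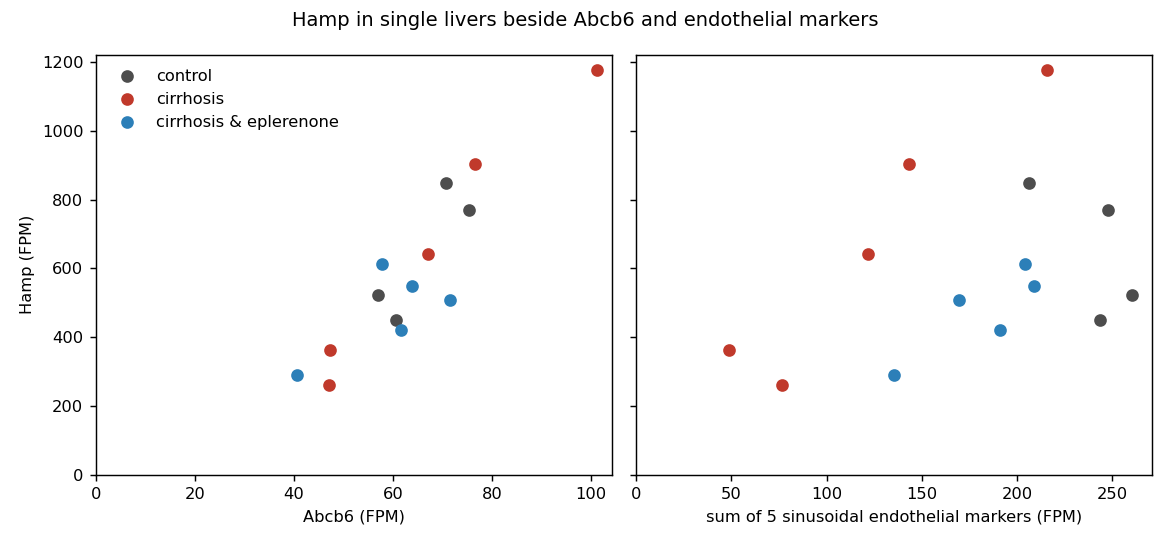
Hamp (FPM, vertical axes) in each of the 14 livers beside Abcb6 (FPM, left) and beside the sum of 5 sinusoidal endothelial markers (FPM, right), coloured by group. Hamp runs from 261.8 FPM in cirrhosis replicate 4 to 1175.8 FPM in cirrhosis replicate 1. Abcb6 is also highest in cirrhosis replicate 1, at 101.3 FPM. It is lowest in eplerenone replicate 3, at 40.56 FPM, and is 47.1 FPM in cirrhosis replicate 4. On the right the 4 controls have sums from 206.5 to 260.5 FPM with Hamp from 448.7 to 848.6 FPM.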

How the data were processed

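Poly(A) RNA was sequenced from both ends (150 bp). The authors mapped reads to rn6 with HISAT2 2.1.0 and summarised them per gene on exons using featureCounts. A read with more than 1 mapping place added to the count of every such gene. Strand setting was not given in the sources used here. The deposited table holds raw counts of reads per gene with no normalization. Replicates are different rats.

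Counts were filtered with filterByExpr (edgeR 4.0.16, R 4.3.3, smallest count 10), scaled by TMM, and the 3 groups fitted in 1 model with edgeR's quasi-likelihood test and, separately, with DESeq2 1.42.0. P-values were adjusted by Benjamini-Hochberg, with an FDR below 0.05 in both tools as the call. Values printed are edgeR's unless named. Intervals are 95% and follow from edgeR's standard error, and where the log2FC was near 0 none was computed. They and the 3-count limit cover the spread between rats and counting error only. The steps were tested on simulated data.

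The members and gene lists were chosen with earlier results of these data known. Named genes are every member, every list gene called in a comparison, a fixed set of regulators and the 5 genes most correlated with Hamp at a mean of at least 1 FPM. One gene covered by this rule is counted but not reported here. Alternatives changed normalization, filter, tool, samples and the use of replicate number or label prefix as a term, and left out each rat in turn. Leaving out cirrhosis replicates 1 and 3 together was added after the data were seen. Gene length was not corrected for.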

Additional observations from a re-analysis of the deposited data

Results flagged for a closer look

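In 3 of 114 groups of a gene, 1 rat stood apart from the rest of its group by Dixon's test (gap to the nearest rat over the whole range), which chance gives in about 1 of 20 groups. One of them was a member, among 27 member groups tested. Tfrc in eplerenone replicate 5 was the lowest of its group at 33.1 FPM, with the others at 62.3 to 64.9 FPM. Lcn2 in eplerenone replicate 3 was the highest at 100.7 FPM, with the others at 2.50 to 24.99 FPM. Smad7 in cirrhosis replicate 5 was the highest at 18.7 FPM, with the others at 12.4 to 13.6 FPM.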

How the results depend on the processing

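The count of members called in cirrhosis against control (1) was 0 without the filter on low counts, 2 with DESeq2 alone, 0 with the replicate block and 2 with 4 rats per group (without cirrhosis replicate 5 and eplerenone replicate 3), where Tf joined Tfr2, and 0 with cirrhosis replicates 1 and 3 left out, an alternative chosen after seeing the data. Leaving out 1 rat gave 0 to 1. Between cirrhosis & eplerenone and control it was 0, and 1 under total counts only, 1 with DESeq2 alone and 0 to 1 on leaving out 1 rat. The list count in cirrhosis (18) ran from 9 to 21 on leaving out 1 rat and was 10 with cirrhosis replicates 1 and 3 left out. For cirrhosis & eplerenone against cirrhosis (0) the list count was 11 with 4 rats per group, when all genes gave 1292 in place of 2. That pair of rats was chosen with earlier results known. Cirrhosis replicate 5 had the lowest Lcn2 of its group and eplerenone replicate 3 the highest of its own. Against control the list count of 7 was 3 with at least 10 counts in every sample, 11 with DESeq2 alone, 3 with the replicate block and 2 to 9 on leaving out 1 rat. The cause of these shifts was not tested.

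Replicate numbers name different rats, and only 3 of 13 same-numbered pairs correlated above 0.1 in their deviations from the group means (-0.333 to 0.187), so no pairing was used. With the replicate block 1742, 0 and 268 of all genes were called in place of 2898, 2 and 750, and Tfr2 in cirrhosis was at -0.62 (edgeR, FDR = 0.0721). DESeq2 alone called 4007, 74 and 1523. Under total counts only, calls in cirrhosis were 3053 higher and 359 lower in place of 1937 and 961. With at least 10 counts in every sample 377 genes were called between cirrhosis & eplerenone and control, and under total counts 1348. Leaving out 1 rat gave as few as 1360 and as many as 4598 calls in cirrhosis, without control replicate 5 and cirrhosis replicate 5. Between cirrhosis & eplerenone and control such fits gave from 220 (without control replicate 5) to 1273 calls (without eplerenone replicate 2). Of 672 member values under alternatives, 66 had the other sign without a call either way, in 15 of 27 member results, and no called value reversed.

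Bmp6 rested on 8 to 63 counts per rat, and the intervals of Hamp leave changes of over 1.5-fold either way undecided in cirrhosis.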
